A study of Arabidopsis thaliana with 6 samples.

Results

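The 9 loci described here were taken from the list of genes that rose in sams3 seedlings. SDC and QQS were chosen because both are known targets of silencing by DNA methylation, and AT3G01345, AT5G45570, AT4G06748, AT4G08093, AT4G07940, AT2G15555 and AT2G01422 were selected on their large log2 fold changes in these data. All 9 are among the 894 genes listed as higher, out of 1336 genes listed as changed in either direction. Since the fold change chose 7 of them, their folds and p-values are given as a description and support nothing further. RNA was sequenced from whole Arabidopsis thaliana seedlings of 15 days, with 2 libraries from L119, a transgenic line used as the wild type, and 2 libraries from the sams3 mutant, which the labels place in the L119 background. The transgene that both genotypes carry and the sams3 allele are not given in the sources used here. Plants of both genotypes grew on agar (0.8%) with sucrose at 20 g/L and 22 °C, under 23 h of light a day. Whether the libraries come from separate cultures is not stated in the labels, and the p-values given by the authors then cover a spread between libraries that may be technical only.

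SAMS3 is a synthetase of S-adenosylmethionine, the methyl donor for DNA and histone methylation. In plants, cytosines are methylated in CG, CHG and CHH contexts (H is any base but G), by MET1, CMT3 and CMT2, and the DRM enzymes guided by small RNAs, and this methylation keeps transposons, repeats and a small number of genes silent. SDC, which takes its name from suppressor of drm1 drm2 cmt3, encodes an F-box protein, and tandem repeats in its promoter are methylated outside CG sites in wild-type seedlings. Its release in plants without DRM and CMT3 activity gives curled leaves and small stature. QQS encodes a small protein with no known relatives outside Arabidopsis thaliana that alters starch and protein content, and its level varies between wild lines with the methylation of its upstream region.

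The deposited values are one log2 fold change (sams3 over L119) and one p-value per gene. No value per library was used, so neither the level of any of these loci in L119 nor the overlap of the genotypes could be looked at, and the word silent in their description was not checked here. The library depth is unknown, and the tissue label was not checked against markers, because lists of changed genes hold no levels. More RNA per cell and more cells of a type cannot be told apart in whole seedlings. The lists keep features that changed at least 2-fold with p below 0.0001, per the file headers.

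SDC and QQS rose by moderate amounts. In the authors' deposited table the log2 fold change of SDC (AT2G17690, chromosome 2) was 2.38, a 5.19-fold rise, with p = 3.45e-14. For QQS (AT3G30720, chromosome 3) the authors' deposited table gives log2 2.27, a 4.83-fold rise, with p = 7.90e-36. Both lie above the median log2 of 1.62 over all higher genes, yet SDC ranks 210 and QQS 233 of 894 by fold, so a description as strong rises holds for them less than for the other 7 loci. The fold of SDC was the larger, and the p of QQS was the smaller by over 20 orders of magnitude. Each had 4 other higher genes within 0.01 of its log2 value. The nearest to SDC in the authors' deposited table were AT2G34350, BGLU24, SESA1 and TPS04 (log2 2.37 to 2.38), and those nearest to QQS were AT5G14700, DIN11, PRX52 and AT1G18290 (log2 2.26 to 2.28). In the reference annotation SDC overlaps the neighbouring gene AT2G17695, and without stated strand counting the reads of the overlapping stretch cannot be told apart.

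The other 7 loci hold 7 of the 11 largest rises in the series. Their log2 values in the authors' deposited table run from 7.97 to 9.66 with a median of 8.82, whereas the median of the 61 higher genes with a log2 of at least 5 is 6.65. That class is 6.82% of the higher genes, and since the rule used the fold, nothing is read from the 7 members in it. The 4 loci of similar fold that were not chosen are AT1G24996 (log2 9.74 in the authors' deposited table), AT2G40955 (9.07), AT5G41830 (8.51) and AT4G18540 (8.13). Just below the lowest of the 7 comes AT5G28810, at 7.59 in the authors' deposited table.

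**Figure D1:**
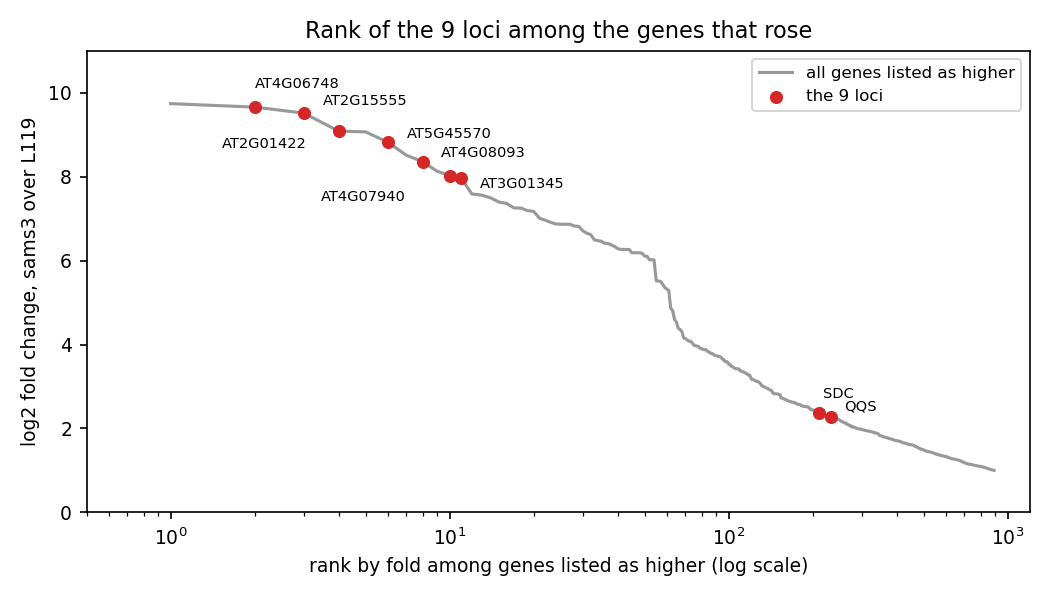
Log2 fold change of every gene listed as higher (grey line) against its rank by fold on a log scale, with the 9 loci as red points. Of the 9 loci, 7 lie within the first 11 ranks, and SDC and QQS lie at ranks 210 and 233.

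Among the protein-coding loci, AT3G01345 stood apart from the others by its p-value. This gene on chromosome 3 is described in the deposited list as an expressed protein with a glycoside hydrolase family 35 domain, the domain of plant beta-galactosidases, which cut galactose from cell wall sugars. Its log2 was 7.97 in the authors' deposited table, the smallest of the 7, and its p of 2.75e-170 was by far the smallest of the 9. Within the class of 61 higher genes whose log2 is 5 or more, its p ranks 2, behind that of the plant defensin gene PDF1.3 (log2 6.28 and p = 2.38e-180 in the authors' deposited table). AT4G07940 has nearly the same fold, with log2 8.02 and p = 5.55e-17 in the authors' deposited table, so equal folds here come with p-values that differ by over 100 orders of magnitude.

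Genes with the domain of AT3G01345 numbered 4 in the list of higher genes and 0 in that of lower genes. AT3G01345 itself is among the 4, and its place there was fixed by its selection. Over all genes, 894 were listed as higher and 442 as lower. The domain family was looked at after values had been seen. Beside AT3G01345, the authors' deposited table holds AT4G29200 at log2 7.19 (p = 4.55e-40) and AT3G24542 at log2 6.87 (p = 5.18e-08), both described as beta-galactosidase related. The classical enzyme gene BGAL4 rose by much less, with log2 1.12 and p = 4.09e-68 in the authors' deposited table. The deposited description records expression of BGAL4 in 25 plant structures, of AT4G29200 in leaf, and of AT3G01345 and AT3G24542 in no place. How many genes with this domain the authors tested is not known, so the share of the family that rose cannot be given.

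AT5G45570, on chromosome 5, is described as a Ulp1 protease family gene, with a peptidase C48 domain of the kind that cleaves the small protein SUMO from its targets and a DUF1985 domain of unknown function. Its log2 was 8.82 in the authors' deposited table, with p = 3.88e-26. DUF1985 was named for 3 higher and 0 lower genes, and AT5G45570 is among the 3 by its selection. AT5G28810 (log2 7.59 and p = 1.28e-12 in the authors' deposited table) has AT5G45570 as its best Arabidopsis protein match in the deposited description, so reads of similar stretches may be shared between them and their single values are uncertain. The third, AT2G07240, has both domains and was at log2 6.87 with p = 3.03e-08 in the authors' deposited table. Genes of the DUF295 type, to which SDC belongs, numbered 2 higher and 0 lower, with SDC among the 2 by its selection. The second, the F-box gene AT2G14290, was at log2 1.65 per the authors' deposited table. For all genes the lists hold 894 higher and 442 lower. How many genes with these domains the authors tested is not known, so no share of either family can be given.

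AT4G07940, on chromosome 4, encodes a protein with a DUF3245 domain, for which no function is given, and it was the only listed gene with that domain. Of the 4 loci among the 9 whose description names a best protein match in Arabidopsis, namely SDC, AT3G01345, AT5G45570 and AT4G07940, 0 have that match in either list of changed genes. The matches are AT1G65760 for SDC, AT5G28919 for AT3G01345, AT4G08430 for AT5G45570 and AT3G61370 for AT4G07940. Of the 797 higher genes with a named best match, 23.8% have it in a list, and a count of 4 loci is too small to set against that share. QQS has no such match, and its description counts 1 search hit in 1 species.

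Both transcribed pseudogenes lie on chromosome 4. AT4G06748 is described as a pseudogene of a hypothetical protein and had the second largest rise of the series, with log2 9.66 and p = 1.78e-44 in the authors' deposited table. AT4G08093, described as an expressed protein with a match to a rice protein of unknown role, was at log2 8.36 with p = 2.47e-20 in the authors' deposited table. In the reference annotation 170 loci separate AT4G06748 from AT4G07940, and 46 loci separate AT4G07940 from AT4G08093, so the 3 members on this chromosome are not immediate neighbours.

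Noncoding RNA loci make up the last pair, and the lists hold no description of either. AT2G15555 was at log2 9.51 with p = 7.23e-42 in the authors' deposited table. For AT2G01422 the authors' deposited table gives log2 9.09 with p = 6.88e-30. Both are on chromosome 2, and the reference classes both as ncRNA. Of the 9 loci, 4 are therefore of a type that encodes no protein (44.4%). The share was 19.7% of the 61 higher genes at a log2 of 5 or more and 4.03% of all 894 higher genes. Both of these groups include the 4 loci. These shares were not tested, as the members were chosen with results known.

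All 9 p-values lie below 1.32e-06, the Bonferroni threshold over 37899 nuclear loci of the reference, as do those of 88.4% of the higher genes, so this count does not set the members apart. For scale, the 894 higher genes equal 2.36% and the 442 lower genes 1.17% of those loci; the number of genes the authors tested is not given. Among the 11 largest rises, fold and p followed the same order in 9, a pattern noticed after the values were seen. In these 9, from AT4G06748 down to AT4G07940, each smaller fold had a larger p. Fold and p come from the same libraries and are not independent, so nothing is read from this order. The exceptions were AT1G24996, whose p of 1.29e-12 in the authors' deposited table was large for its log2, and AT3G01345, whose p was small. A total of 54 higher genes had a log2 of at least 6, starting at 6.02, and the next lower value was 5.52, which leaves a gap in the list. Of these 54, 11 had p below 1e-30, and AT4G06748, AT2G15555 and AT3G01345 are the 3 members among them. A fold of a gene with few or no reads in L119 depends on the prior count used by the authors. Which of the 7 loci this applies to is not known, since no level in L119 was seen. Their log2 values are therefore taken as a rough ranking only.

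**Figure D2:**
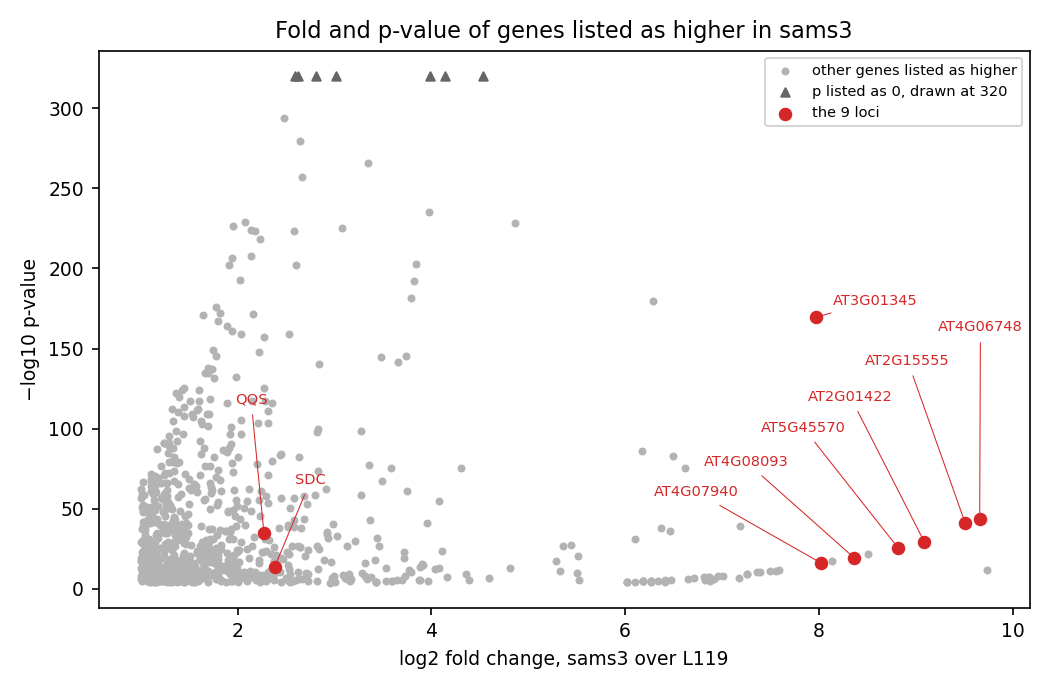
Fold change (log2, horizontal) and −log10 of the p-value (vertical) of each gene listed as higher, from the authors' deposited table, with the 9 loci in red and the genes whose p is listed as 0 drawn at the top as triangles. From AT4G07940 to AT4G06748, 6 of the loci lie along a narrow rising band at the lower right, and AT3G01345 lies far above it.

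The loci differ in where they sit. In the reference annotation, QQS and the 3 members on chromosome 4 are surrounded by loci of type pseudogene, the type under which the reference also holds transposon genes such as those in the authors' list of transposable elements (TEs). Of the 10 loci on each side, 17 of 20 are pseudogenes around AT4G06748 (85%), 15 around AT4G08093 (75%), 13 around AT4G07940 (65%) and 12 around QQS (60%). AT2G15555 has 6 such neighbours (30%), AT5G45570 has 3 (15%) and SDC has 1 (5%). AT3G01345 and AT2G01422 have 0, so that large rises occurred both within and outside pseudogene-rich surroundings. With a share of at least 30% taken as pseudogene-rich, 5 of the 9 loci are in such a neighbourhood. The same holds for 31.5% of the 54 other higher genes at a log2 of 5 or more, 4.93% of all placed higher genes, 3.39% of the lower genes and 12.5% of all nuclear reference loci. QQS is among the 5 loci, although its log2 of 2.27 lies below that fold class. All placed higher genes include the 5 loci. No test was made of these shares. AT2G15555 sits exactly at the limit, and with 20 loci on each side its share was 22.5%.

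**Figure D3:**
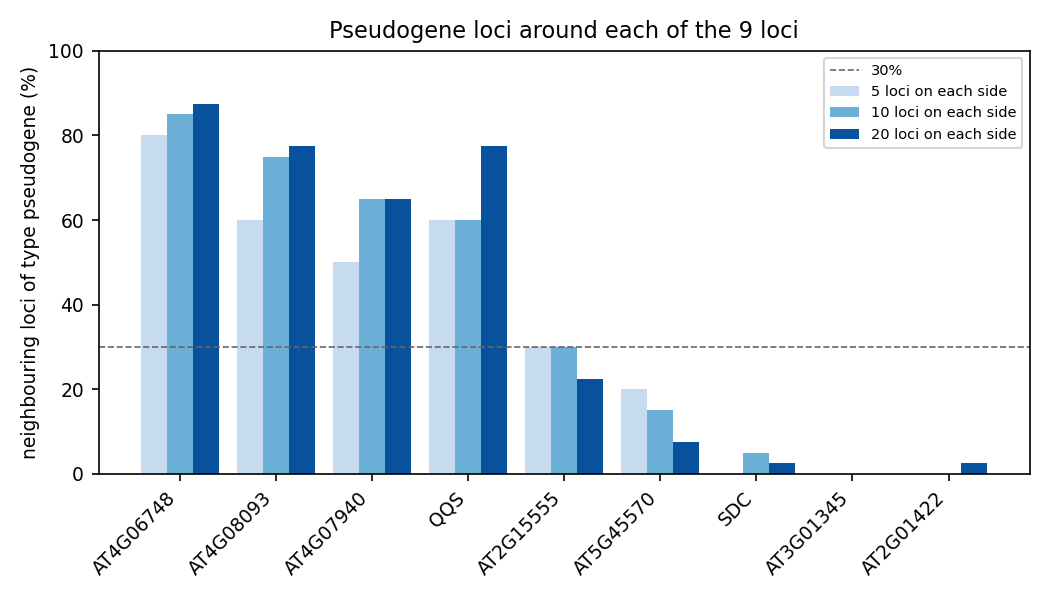
Share of neighbouring reference loci of type pseudogene, in percent, for each of the 9 loci and for 5, 10 and 20 loci on each side, with the limit of 30% as a dashed line. AT4G06748, AT4G08093, AT4G07940 and QQS are at 50% or more in each window, and AT3G01345, AT2G01422 and SDC are at 5% or less.

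Few neighbours of these loci were listed. Within 2 reference loci on either side, 0 of the 9 had another listed gene, whereas 29.5% of all higher genes had one, as did 23.0% of those at a log2 of 5 or more. The list headed as TEs that rose repeats the list of higher genes, so a rise of a neighbouring TE could not be seen. Nothing is therefore read from the count of 0 among 9 loci. Farther out, 3 of the 9 had a listed gene within 10 loci, against 62.7% of all higher genes. SDC lies 3 loci from AT2G17660, a gene of the RIN4 immune regulator family (log2 2.22 and p = 2.93e-56 in the authors' deposited table), and 8 loci from AT2G17740, a cysteine and histidine-rich domain gene (log2 2.92 and p = 5.93e-35). AT4G07965, which has no named function, lies 4 loci from AT4G07940 and was at log2 7.50 with p = 3.16e-12 in the authors' deposited table. UGT73B5, a glycosyltransferase gene, lies 10 loci from AT2G15555 (log2 1.27 in the authors' deposited table). All 4 of these neighbours were higher, as were 894 of the 1336 listed genes, so nothing is read from their shared direction. Beyond 10 loci, AT4G08115, 21 loci from AT4G08093, had log2 -2.09 with p = 4.19e-10 in the TE list, also the authors' deposited table. The usable TE list holds only features that fell, so the direction of AT4G08115 was fixed by the list and makes no contrast with the 4 neighbours.

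The deposited descriptions name no place of expression for any of the 9 loci. Such an entry lists the plant structures in which earlier work recorded a transcript, and it is independent of these libraries. Of all 894 higher genes 53.8% have one, and of the 442 lower genes 46.8%. By size of the rise, the share was 57.9% of the 606 genes whose log2 was under 2 and 57.4% of the 155 from 2 to 3. It was 48.6% of the 72 from 3 to 5 and 9.84% of the 61 at 5 or more. The lower share was thus found mainly in the last class. With the 7 members left out of the last class, 6 of 54 genes (11.1%) had an entry, among them AT4G29200 and AT2G40955, the latter recorded in cultured cells. Both noncoding RNA members lack a description, so protein-coding genes with a description were also counted alone. In that count 0 of the 5 protein-coding members had an entry. The share was 59.0% of the 593 genes whose log2 was under 2 and 60.1% of the 148 from 2 to 3. It was 52.2% of the 67 from 3 to 5, and 6 of the 46 other genes at 5 or more (13.0%). SDC and QQS are among the 5 and belong to the class from 2 to 3. A count of 5 is too small to set against these shares. Lower genes at a log2 of minus 3 or below had an entry in 5 of 17 cases (29.4%). A missing entry is no measurement of silence in L119, and the comparison was thought of once the lists had been read.

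**Figure D4:**
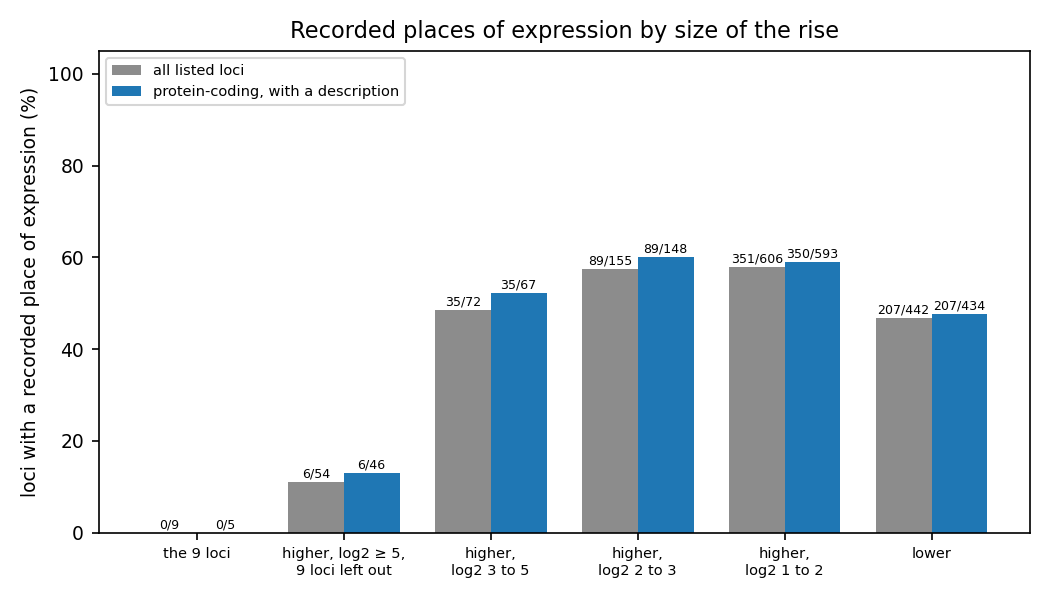
Percent of listed loci whose deposited description names a place of expression, for the 9 loci, for higher genes by size of the log2 fold change and for lower genes; grey bars count all loci and blue bars protein-coding genes with a description, with counts above the bars. SDC and QQS are counted both among the 9 loci and in the class from 2 to 3. The share is 0 for the 9 loci and 11.1% for the other genes with a log2 of at least 5 (grey bars), against 57.9% for those from 1 to 2.

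Values for related gene groups are set here beside the share of all nuclear reference loci that were listed, which is 3.53% in either direction, 2.36% as higher and 1.17% as lower. SDC and QQS are left out here, as their place in the higher list was fixed by their selection. Of 9 other loci linked to DNA methylation or imprinting, 0 were listed as higher, 1 as lower and 8 were not listed. The 0 is near the share of 2.36% and says nothing particular about these loci. Whether each of them is silent in L119 seedlings was not checked. Those not listed include the floral repressor gene FWA, the imprinted genes MEA and FIS2, and the demethylase gene ROS1. The one that fell was PHE1, an imprinted MADS-box gene of the endosperm, at log2 -3.17 with p = 2.73e-09 in the authors' deposited table. Of the methylation and silencing machinery, 0 of 37 genes were listed, MET1, CMT3, DRM2 and DDM1 included, a count near the share of all loci that says nothing particular about this group. Lists of changed genes give no count at an unadjusted p, so a change smaller than 2-fold cannot be told from no change. Among 10 seed markers, 4 were listed as higher and 0 as lower, against 2.36% of all loci listed as higher. They were SESA3 (log2 7.40 in the authors' deposited table), SESA2 (2.60), SESA1 (2.37) and CRA1 (1.19), which encode storage proteins. The part of seed transcripts in the rises of the 9 loci was not tested.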

How the data were processed

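RNA libraries of L119 (2) and sams3 (2) were compared by the authors; the bisulfite libraries, 1 per genotype, were not analysed here. Each of the 3 deposited lists pairs a feature with the log2 fold change and the p-value that the authors obtained. A change of at least 2-fold and p below 0.0001 were required by the authors, per the file headers, and the sources used here do not tell if p was adjusted. Bismark, Bowtie2, edgeR and the build TAIR10 appear in the submitters' processing notes, with no settings. A table headed as TEs that rose was byte for byte the list of higher genes and was not used.

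Names, gene types and gene order came from a RefSeq table of TAIR10.1, which held 1335 of the 1336 genes; no coordinates are printed, since that name differs from the authors' build. Shares of pseudogene neighbours, listed neighbours, domains, best matches and places of expression were counted with Python 3.11.15, numpy 2.4.6, pandas 2.3.3 and matplotlib 3.10.9, and the neighbour counts were checked on simulated loci. No significance test was made: the rule used this contrast. The members and lists were chosen with earlier results of these data known. Named genes were the 9 loci, listed genes within 10 loci of one, those nearest in log2, the largest rises, listed members of the fixed lists and the most similar genes, here the best match in the descriptions. Genes sharing a domain, PDF1.3 and AT4G08115 were named after their values were seen.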

Additional observations from a re-analysis of the deposited data

How the results depend on the processing

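Of 13 alternatives, 11 left a count within 1.5 times its value in the report. Members with a listed neighbour numbered 0 within 2 reference loci, 2 within 5 and 3 within 10, since wider windows hold more genes by construction. Members with a log2 of at least 8 numbered 6, because AT3G01345 lies just below. Pseudogene-rich neighbourhoods held 4 members with 20 loci on each side or with a share of at least 50%, and 5 in the other settings. Counting transcribed pseudogenes among the neighbours, and protein-coding genes alone for places of expression, were chosen after seeing the data. No paired analysis was possible because no values per library were used. The same reason kept the planned normalizations, tools, pseudocounts, filters on low values and fits without each replicate from being run. Searches for similar promoters or proteins and for promoter repeats were planned and not run. Depth, and with it the precision of each fold, is unknown.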

Other observations

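The search-hit counts in the deposited descriptions repeat across unrelated genes. The same string of 1807 hits to 1807 proteins in 277 species stands in 147 of the 1336 listed genes, that of 30201 hits to 17322 proteins in 780 species in 121, and that of 35333 hits to 34131 proteins in 2444 species in 36. Together these 304 genes are 22.8% of those listed, and AT3G01345 is the member among them, with the last of the strings. Its number of species was therefore not used as a sign of how widely the protein is found. The repeated strings stand in 31.1% of the higher genes at a log2 of 5 or more and in 21.0% of those under 2.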
